A study of Saccharomyces cerevisiae with 4 samples.

Results

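The open reading frames of the yeast mitochondrial genome were followed on 2-color expression arrays that compared *esl1Δ esl2Δ* cells with the wild-type. They were taken as all gene probes whose systematic name begins with Q0, which selected 23 of the 6256 probes on the array. The rule itself used no measured value, but the frames were chosen with earlier results of these data known. The 23 probes cover 8 genes of known proteins outside introns, 10 frames that lie in introns, and 5 frames with no assigned product.

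Both strains were *MATa* cells of the Y52 strain in the W303-1A background and shared the auxotrophic markers *leu2-3, 122* and *trp1-1*, the further alleles *ura3-1* and *ade2-1*, the resistance allele *can1-100*, and *RAD5*. The mutant carried *esl1Δ::KAN* and *esl2Δ::NAT* in addition. All cultures grew in rich medium (YPD) with 2% glucose at 30° and were collected in log phase. The 3 biological replicates each had RNA of both strains on 1 array, the mutant labeled with Cy5 and the wild-type labeled with Cy3, and the RNA of replicate 3 was hybridized again with exchanged dyes, which gave 4 arrays in all. Whether the replicates were separate clones is not given in the sources used here, so the p-values measure the spread between these samples.

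Mitochondrial DNA of *Saccharomyces cerevisiae* encodes core subunits of cytochrome *bc1* complex (complex III), cytochrome *c* oxidase (complex IV) and the ATP synthase, together with a ribosomal protein, ribosomal RNAs and transfer RNAs. It is read by its own RNA polymerase into long precursors that hold several genes, and these are cut, spliced and stabilized by proteins imported from the cytoplasm. Many introns carry reading frames of their own for maturases or endonucleases, so probes in these frames can bind unspliced precursor, excised intron or both. Mature mitochondrial messenger RNAs of this yeast lack poly(A) tails, whereas the labeling used here started from an oligo(dT) primer. The probe signals therefore cannot be read as amounts of mitochondrial RNA relative to nuclear RNA, and how these transcripts came to be labeled was not tested. In whole cultures, less mitochondrial RNA per cell and fewer cells with mitochondrial DNA also cannot be told apart.

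The quality of the arrays was described by signal, flags and correlation. The median gene signal lay between 2358 and 5186 in the *esl1Δ esl2Δ* channel and between 1660 and 4107 in the wild-type channel, no gene spot was saturated, and the share of gene spots flagged well above background was 92.4 to 98.0%. The lowest median, 1660, and the lowest share, 92.4%, were both those of the wild-type Cy3 channel of replicate 3. The deleted genes checked the labels, with log2 ratios of -4.50 ± 0.23 for *ESL1* and -3.76 ± 0.20 for *ESL2* (SD, n = 3, limma adjusted p = 0.00104 for both). All 6 *MATa*-specific genes examined were detected in both strains on 4 arrays. The *MATα*-specific *STE3* was also detected on 4 arrays in each strain and *MF(ALPHA)1* on 3 in each, so these α-specific genes were not at background in these cells. Over all probes, replicates 1 and 2 correlated at r = 0.68, whereas replicate 3 correlated with them at only 0.10 and 0.21 and with its own dye swap at 0.84 (across 6254 probes, which are not independent replicates).

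Signal was first set against background. A probe was counted as detected in a strain on an array when a share of at least 0.5 of its spots were well above background by the scanner software. On this rule 14 of the 23 mitochondrial probes, or 60.9%, were detected in both strains on all 4 arrays, against 5787 of all probes, or 92.5%. On single arrays, 17 to 19 mitochondrial probes were detected in *esl1Δ esl2Δ* cells and 14 to 18 in the wild-type. Of all probes, 94.7 to 98.2% were detected in the mutant and 92.8 to 96.3% in the wild-type. The wild-type carried Cy3 on every array but the dye swap, so strain and dye cannot be told apart in the counts of replicates 1 and 2. In replicate 3 the mutant had 17 with Cy5 and 17 with Cy3, against 16 and 14 in the wild-type. Of all probes, 96.5 and 94.7% were detected in the mutant with Cy5 and Cy3 there, against 96.1 and 92.8% in the wild-type. This rests on 1 replicate and was not tested. The lowest count, 14, was that of the wild-type on the array of replicate 3, which also had the lowest median gene signal. Detection was thus less frequent for mitochondrial frames than for the array as a whole, in both strains.

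The 14 detected probes comprised 5 of the 8 genes, 7 of the 10 intron frames and 2 of the 5 unassigned frames. The genes were *COX1*, *COX3*, *COB*, *ATP8* and *OLI1*. The intron frames were all 6 of *COX1* (*AI1*, *AI2*, *AI3*, *AI4*, *AI5_ALPHA* and *AI5_BETA*) and *SCEI*, which encodes the endonuclease of the intron in the 21S ribosomal RNA gene. The unassigned frames were Q0017 and Q0297. None of the 3 intron frames of *COB* was detected throughout, while the *COB* probe itself was.

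The remaining 9 probes fell into 2 kinds. *COX2*, the gene of subunit 2 of cytochrome *c* oxidase, and *VAR1*, the gene of a protein of the small mitochondrial ribosomal subunit, were detected on 4 arrays in the mutant and on 3 in the wild-type. Both were missed in the wild-type on the first array of replicate 3, where the wild-type carried Cy3. *BI2*, which encodes the maturase of the second *COB* intron, was detected on 4 arrays in the mutant and on 2 in the wild-type, *BI3* on 1 in each, and Q0182 on 1 in the mutant and on 0 in the wild-type. *BI2* was missed in the wild-type on both arrays of replicate 3, with either dye. *ATP6*, *BI4*, Q0010 and Q0255 were not well above background in either strain on any array. Their ratios show no measured difference, but they enter the counts and medians over the 23 frames and over each kind of frame given below. *ATP6* shares its precursor with *COX1* and *ATP8*, whose probes were detected throughout.

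The size of the signals was set against the negative control spots of each array, whose medians were 55.5 to 71. The probe of *OLI1*, which encodes subunit 9 of the ATP synthase, gave 1221 to 5154 times the negative control signal in *esl1Δ esl2Δ* cells and 696 to 2883 times in the wild-type. At the other end, the *ATP6* probe gave 1.09 to 1.32 times the negative control in the mutant and 1.02 to 1.56 times in the wild-type, and *BI4* gave 0.94 to 1.03 times in the mutant and 0.89 to 0.91 times in the wild-type. Because probes differ in binding and labeling, these multiples show how far each probe stood above background and not which transcript was more abundant.

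**Figure D1:**
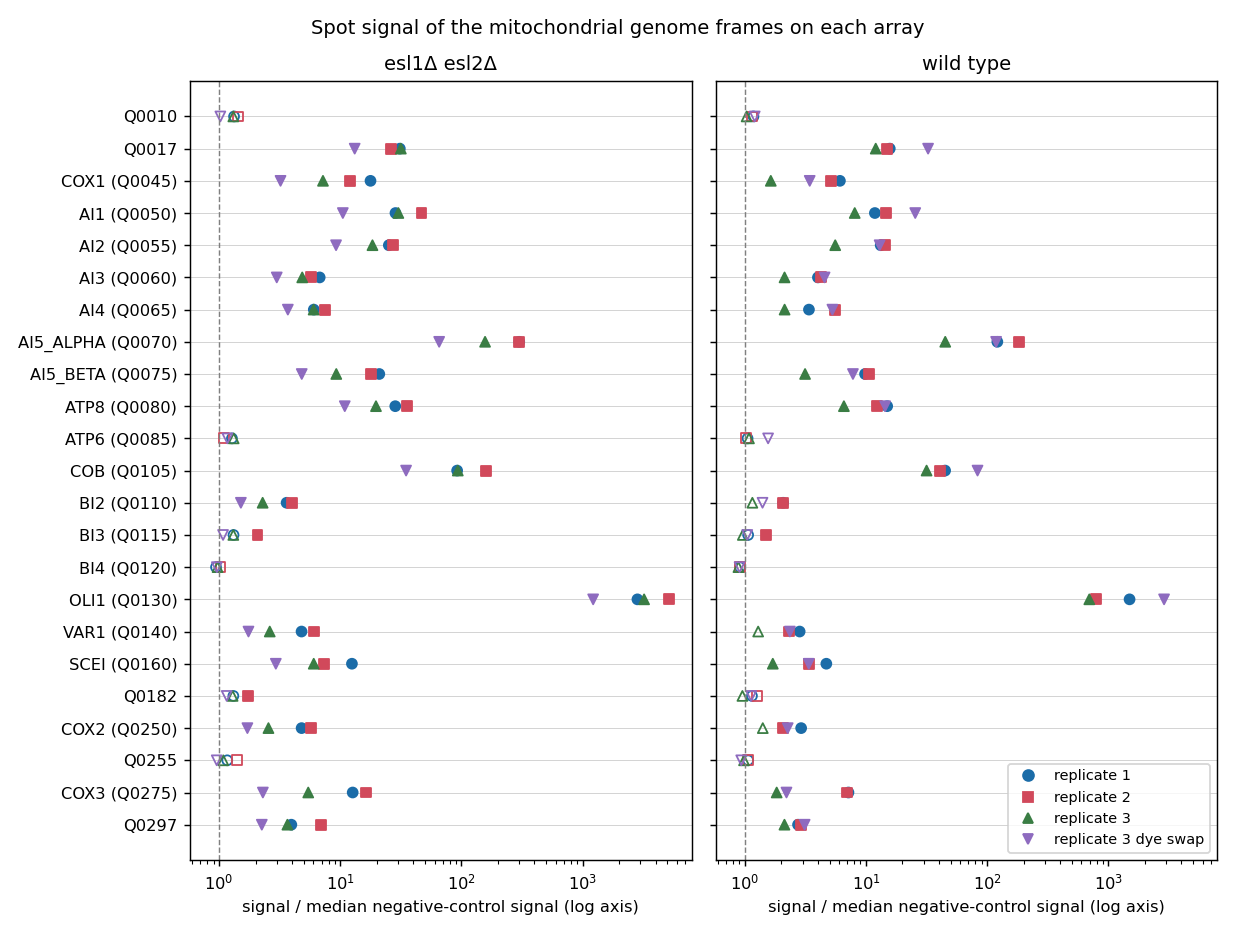
Signal of each mitochondrial frame over the median negative-control signal (log axis) on 4 arrays, in *esl1Δ esl2Δ* cells (left panel) and the wild-type (right panel). Filled symbols are detected probes and open symbols are not; the dashed line marks the negative-control level. *OLI1* lies at 696 or more in every channel and *ATP6*, *BI4*, Q0010 and Q0255 lie near 1.

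The mutant was then compared with the wild-type as the log2 ratio within each array. None of the 23 mitochondrial probes passed an adjusted p of 0.05 in limma, against 0.112% of all 6254 probes tested (7 probes), and none changed 2-fold, against 0.799% (50 probes). Without adjustment, 3 of the 23 had p below 0.05, namely *COX1*, *SCEI* and *BI2*, against 13.3% of all probes. The smallest adjusted p among them was 0.168, for *COX1*. The mean ratio was above 0 for 18 of the 23, against 48.9% of all probes, and below 0 for 5.

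The median log2 ratio of the 23 frames was 0.16, against -0.0049 for all probes. It was 0.10 with each array centered on its median and 0.26 with an offset of 0 in place of 50 in the background correction. By replicate this median was 0.04, 0.13 and 0.18. Of the 23, 8 were higher in the mutant in all 3 replicates, against 18.7% of all probes, and 1, *ATP6*, was lower in all 3, against 18.5%. *ATP6* was not above background, so its ratio carries no measured difference. When each array was centered on its median in place of loess, 3 of the 23 were higher and 6 lower in all replicates. With this scaling 13 means were above 0, so these counts changed with the scaling. The 6 were *ATP6*, *BI3*, *BI4*, Q0010, Q0182 and Q0255, none of them detected in both strains on more than 1 array. The shares of all probes higher or lower under this scaling were not computed. Several frames also share a precursor and are not independent measurements. For the 14 frames detected throughout, the median was 0.26, with 12 means above 0 (49.4% of all probes so detected) and 4 higher in all replicates (18.5%).

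**Figure D2:**
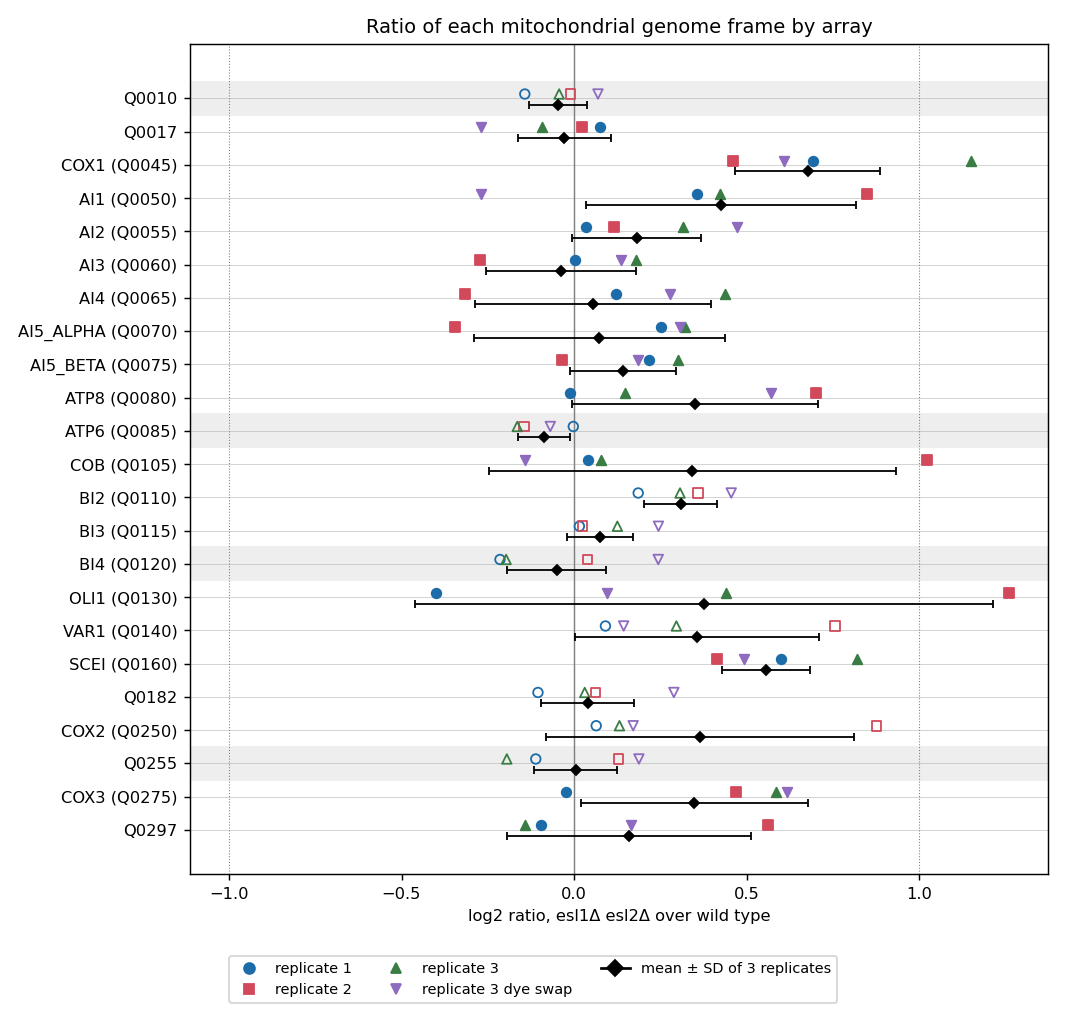
Log2 ratio of *esl1Δ esl2Δ* over wild-type for each mitochondrial frame in replicates 1, 2 and 3 and the dye swap of replicate 3, with the mean ± SD of the 3 replicates as a diamond and bar. Open symbols are probes not detected in both strains on all 4 arrays, gray bands mark the 4 probes detected on none, and dotted lines mark 2-fold. *COX1*, *AI2*, *BI2*, *BI3*, *VAR1*, *SCEI* and *COX2* are above 0 on all 4 arrays, and *OLI1*, *COB* and *COX2* reach their highest values in replicate 2.

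Among the subunits of complex IV, *COX1*, which encodes the catalytic core subunit 1, had the highest mean ratio of all 23 frames. Its signals were 1030, 666 and 407 in *esl1Δ esl2Δ* cells on the arrays of replicates 1, 2 and 3 and 228 on the dye swap, against 399, 361, 110 and 199 in the wild-type. As both dyes differ in brightness, only the normalized ratio sets the strains against each other, and it was 0.69, 0.46 and 0.88 on the log2 scale in replicates 1, 2 and 3. The mean was 0.68 ± 0.21 (SD, n = 3), a ratio of 1.60 with a 95% interval of 0.37 to 0.99 on the log2 scale, and the limma adjusted p was 0.168. *COX1* was thus higher in the mutant on 4 of 4 arrays but did not pass the test over all probes. In all, 7 of the 23 frames were above 0 on every array, of which *COX1*, *SCEI* and *AI2* were detected in both strains on each. The share of all probes above 0 on every array was not computed, so this count has no background to be read against. Of the 4 arrays, 2 held the same RNA, that of replicate 3.

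The arrays of replicate 3 gave *COX1* 1.15 and, after exchange of the dyes, 0.61. On the first of these arrays its wild-type signal, 110, was 1.64 times the median negative control, and the largest negative control gave 104. The ratio of replicate 3 ran from 0.81 with median centering to 1.38 with the log ratio of the scanner software. Without replicate 3 the mean of *COX1* was 0.58 and the limma adjusted p was 0.0373, below 0.05. Without replicate 1 or 2 the limma adjusted p was 0.556 and 0.819. Leaving out replicate 3 also raised the number of passing probes on the whole array to 602 of 6254. *COX1* was the 1 mitochondrial frame past 1.5-fold, a size passed by 3.76% of all probes (235 probes).

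*COX2* and *COX3*, the genes of the other core subunits, differed in pattern. *COX2* gave 278, 320 and 144 in the mutant and 122 on the dye swap, against 191, 144, 94.3 and 131 in the wild-type, and its ratios were 0.06, 0.88 and 0.15 in replicates 1, 2 and 3. *COX3* gave 734, 907 and 307 in the mutant and 163 on the dye swap, against 469, 486, 123 and 128 in the wild-type, and its ratios were -0.02, 0.47 and 0.60. On the first array of replicate 3 its wild-type signal was 1.83 times the median negative control, with 1 of 2 spots well above background. Neither mean passed the test, at 0.36 ± 0.45 for *COX2* (SD, n = 3, limma adjusted p = 0.473) and 0.35 ± 0.33 for *COX3* (SD, n = 3, limma adjusted p = 0.417). The 3 transcripts of complex IV therefore had means above 0 but peaked in different replicates, *COX2* in replicate 2 and *COX1* and *COX3* in replicate 3.

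*COB*, the gene of cytochrome *b* and the single mitochondrial subunit of complex III, was bright on every array. It gave 5341, 8859 and 5269 in the mutant and 2478 on the dye swap, against 2946, 2845, 2119 and 4829 in the wild-type. Its ratios were 0.04, 1.02 and -0.03 in replicates 1, 2 and 3, and both orientations of replicate 3 lay close to 0, at 0.08 and -0.14. The mean of 0.34 ± 0.59 (SD, n = 3, limma adjusted p = 0.565) rests on replicate 2 alone, since without it the mean was 0.0036.

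The ATP synthase genes varied in the same replicate. *OLI1* gave 164238, 286050 and 181640 in the mutant and 86678 on the dye swap, against 98030, 55550, 46661 and 167213 in the wild-type, and its ratios were -0.40, 1.26 and 0.27. Its mean was 0.38 ± 0.84 (SD, n = 3, limma adjusted p = 0.650), with a 95% interval of -0.42 to 1.17, the widest replicate spread of the 23 frames. Without replicate 2 its mean was -0.07. Its direction therefore turned on 1 replicate. Its spots lay near the upper end of the intensity range, where 111 of the 6256 probes were brighter on average. With median centering its ratios were -0.05, 1.77 and 0.32.

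*ATP8*, the gene of subunit 8, gave 1648, 1984 and 1113 in the mutant and 773 on the dye swap, against 980, 869, 440 and 835 in the wild-type. The ratios were -0.01, 0.70 and 0.36 in replicates 1, 2 and 3, with a mean of 0.35 ± 0.36 (SD, n = 3, limma adjusted p = 0.436). It shared with *OLI1*, *COB* and *COX2* a value near or below 0 in replicate 1 and its highest value in replicate 2. *ATP6* gave 74.0, 60.5, 74.5 and 83.0 in the mutant, against 69.0, 71.8, 72.5 and 90.3 in the wild-type, which were all near the level of the negative controls.

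*VAR1*, which lies downstream of *OLI1* in the same precursor, gave 278, 339 and 148 in the mutant and 124 on the dye swap, against 186, 161, 86.3 and 137 in the wild-type. Its ratios were 0.09, 0.76 and 0.22, with a mean of 0.36 ± 0.35 (SD, n = 3, limma adjusted p = 0.426). Both genes of this precursor thus had their highest ratio in replicate 2, while in replicate 1 *OLI1* was below 0 and *VAR1* was not.

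The 6 intron frames of *COX1* had lower means than the *COX1* probe. *AI1* and *AI2*, which encode maturases with reverse transcriptase activity for introns 1 and 2, had ratios of 0.36, 0.85 and 0.08 and of 0.04, 0.11 and 0.39 in replicates 1, 2 and 3. The other frames had their lowest value in replicate 2 and their highest in replicate 3, as *COX1* did. *AI3* gave ratios of 0.0014, -0.27 and 0.16, *AI4* gave 0.12, -0.31 and 0.36, and *AI5_ALPHA* gave 0.25, -0.35 and 0.31. *AI5_BETA* gave 0.22, -0.04 and 0.24. In replicate 2 the *COX1* unit thus ran from above 0 in *COX1*, *AI1*, *AI2* and *ATP8* to below 0 in *AI3*, *AI4*, *AI5_ALPHA* and *AI5_BETA*.

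The means of these 6 intron frames lay between -0.04 for *AI3* and 0.43 for *AI1*, and their adjusted p-values between 0.378 and 0.917 (limma). The 95% interval of *AI5_ALPHA* was -0.34 to 0.48 and that of *AI1* was -0.0026 to 0.86, so these data do not show that the strains were alike. *AI1* depended on dye, with 0.42 and -0.27 in the 2 orientations of replicate 3. The difference between *COX1* and its intron frames was not tested.

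The signals of these frames were clearly above background. *AI5_ALPHA* gave 17378, 16567 and 8846 in the mutant and 4647 on the dye swap, against 7947, 12765, 3021 and 6877 in the wild-type. *AI1* gave 1655, 2599 and 1703 in the mutant and 745 on the dye swap, against 775, 1020, 541 and 1478 in the wild-type. *AI2* gave 1458, 1514 and 1041 in the mutant and 655 on the dye swap, against 866, 1001, 373 and 751 in the wild-type. These bright frames kept the order of the dyes on each array, the Cy5 channel being the brighter. The *AI3* probe stood at 6.76, 5.77 and 4.85 times the negative control in the mutant and 2.99 times on the dye swap, against 4.01, 4.24, 2.13 and 4.55 times in the wild-type. *AI4* gave 351, 414 and 340 in the mutant and 262 on the dye swap, against 222, 388, 143 and 306 in the wild-type. *AI5_BETA* gave 1217, 991 and 524 in the mutant and 341 on the dye swap, against 643, 742, 211 and 453 in the wild-type.

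*SCEI*, the endonuclease frame of the 21S ribosomal RNA intron, had the second highest mean. It gave 724, 404 and 341 in the mutant and 209 on the dye swap, against 308, 235, 114 and 196 in the wild-type, and its ratios were 0.60, 0.41 and 0.66 in replicates 1, 2 and 3. Both orientations of replicate 3 were above 0, at 0.82 and 0.49. On the first of these arrays its wild-type signal was near background, at 1.70 times the median negative control. The mean was 0.56 ± 0.13 (SD, n = 3), a ratio of 1.47 with a 95% interval of 0.28 to 0.83 on the log2 scale, and the limma adjusted p was 0.179. Without replicate 3 the mean was 0.51 and the limma adjusted p was 0.0431, whereas without replicate 1 or 2 it was 0.597 and 0.897. In the fit without replicate 3, 602 of all 6254 probes passed, and 2 of the 23 frames, so passing there does not set *SCEI* apart. The 2 frames with the highest means therefore belong to different precursors and to different kinds, a structural gene and an intron frame.

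*BI2* had 209, 222 and 129 in the mutant and 107 on the dye swap, against 136, 144, 77.3 and 81.2 in the wild-type. Its ratios of 0.19, 0.36 and 0.38 gave a mean of 0.31 ± 0.11 (SD, n = 3, limma adjusted p = 0.313). The mean changed with the processing and was 0.81 with the log ratio of the scanner software and 0.10 with median centering.

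The unassigned frame Q0017 gave 1797, 1463 and 1785 in the mutant and 933 on the dye swap, against 1029, 1036, 806 and 1887 in the wild-type, with ratios of 0.07, 0.02 and -0.18. Q0297 gave 229, 383 and 207 in the mutant and 160 on the dye swap, against 180, 203, 142 and 181 in the wild-type, with ratios of -0.10, 0.56 and 0.01. Q0017 and Q0297 had means of -0.03 ± 0.13 and 0.16 ± 0.35 (SD, n = 3), with adjusted p-values of 0.931 and 0.703 (limma). Q0182 was detected in the mutant alone, on the array of replicate 2, where its log2 ratio was 0.06 with loess and -0.15 with median centering. No direction can be read from it, and the signal did not allow a lower bound above 1 for its ratio.

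By kind, the median log2 ratio was 0.35 for the 8 genes, with medians of 0.02, 0.73 and 0.24 in replicates 1, 2 and 3. The 10 intron frames had a median of 0.11, with 0.15, 0.03 and 0.28, and the 5 unassigned frames had a median of 0.0046, which is the ratio of Q0255, a probe at background. Among frames detected throughout, the medians were 0.35 for 5 genes, 0.14 for 7 intron frames and 0.07 for 2 unassigned frames. The medians of the kinds therefore parted mainly in replicate 2, where that of the genes was high and that of the intron frames near 0. Single intron frames ran there from -0.35 for *AI5_ALPHA* to 0.85 for *AI1*. The genes ran from -0.14 for *ATP6*, a probe at background, to 1.26 for *OLI1*. The difference between the kinds was not tested. In replicate 2, 2 of the 17 frames detected in both strains on at least 2 arrays (*OLI1* and *COB*) passed 2-fold, against 2.65% of all probes in that replicate. None did in replicates 1 and 3, where 1.09% and 2.17% of all probes did.

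Across the 14 frames detected throughout, the ratios of replicates 1 and 2 correlated at r = -0.24, those of replicates 1 and 3 at 0.51, those of replicates 2 and 3 at -0.05, and both orientations of replicate 3 at 0.56. These points share arrays and precursors and are given as a description only. Over all probes the order was different, with replicates 1 and 2 the most alike. Exchange of the dyes kept the sign for 11 of the 14 frames, with a median difference of 0.20 between both arrays and a maximum of 0.69 for *AI1*. The median SD between spots of a probe was 0.04 to 0.05 for the 17 frames, so that the replicates differed by more than the spots within an array, and the exact sign-flip test of 3 replicates cannot go below p = 0.25.

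Nuclear genes for subunits of the same complexes were set beside the mitochondrial ones. The ATP synthase list also held *INH1*, *STF1* and *STF2*, which encode regulators of the enzyme and not subunits. Of the 9 nuclear complex III genes measured, 9 were higher in the mutant in all 3 replicates, with a median log2 ratio of 0.42 and replicate medians of 0.31, 0.81 and 0.32. The 9 measured nuclear complex IV genes had a median of 0.47, with 0.21, 0.82 and 0.36, and 8 were higher in all replicates. The 17 ATP synthase genes had a median of 0.55, with 0.23, 0.91 and 0.49, and 15 were higher in all replicates. No gene of these lists passed an adjusted p of 0.05 or 2-fold, so the counts of passing genes were 0 of 9, 0 of 9 and 0 of 17, while 7, 6 and 14 had an unadjusted p below 0.05 in limma. Over all probes, 18.7% were higher in all replicates and 13.3% had an unadjusted p below 0.05.

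Of the nuclear genes, 9 of 9, 8 of 9 and 12 of 17 were highest in replicate 2 in complex III, complex IV and the ATP synthase, and so were *COB*, *COX2*, *OLI1* and *ATP8*. *COX1* was not, since its value in replicate 2, 0.46, was its lowest, and *COX3* was highest in replicate 3. The share of all probes highest in replicate 2 was not computed, so these counts do not show a pattern particular to these genes. Replicate 2 also had the largest share of all probes past 2-fold, 2.65% against 1.09% in replicate 1 and 2.17% in replicate 3. In replicate 1 the nuclear medians were above 0 whereas *COB*, *COX3* and *ATP8* lay within 0.04 of 0 and *OLI1* was at -0.40. *COX5B*, which encodes a hypoxic isoform of a complex IV subunit, and *STF1*, which encodes a regulator of the ATP synthase, were below 0 in replicate 3, at 0.66, -0.06 and -0.53 and at 0.67, 0.53 and -0.44 in replicates 1, 2 and 3. *ATP2*, a catalytic subunit of the ATP synthase, was lowest in replicate 2 as *COX1* was, at 0.34, 0.21 and 0.51. These genes were named after their values had been seen.

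**Figure D3:**
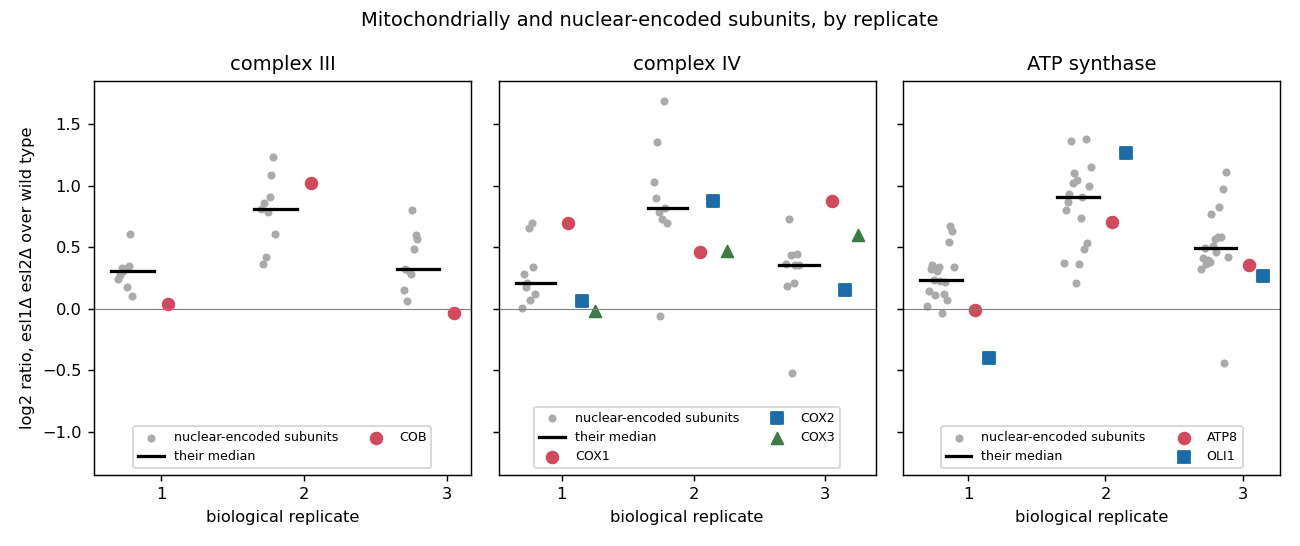
Log2 ratio of *esl1Δ esl2Δ* over wild-type in each biological replicate for genes of complex III, complex IV and the ATP synthase. Gray points are nuclear-encoded subunits, with regulators included for the ATP synthase, and black bars are their medians. Colored symbols are detected or partly detected mitochondrial genes. The nuclear medians are highest in replicate 2, at 0.81, 0.82 and 0.91, and *COX1* lies above them in replicates 1 and 3 and below in replicate 2.

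Genes that act on mitochondrial DNA and RNA had smaller medians. The 13 genes of mitochondrial DNA transcription and maintenance had a median of 0.15, with 8 higher and 0 lower in all 3 replicates. The 24 genes of RNA processing, splicing and decay had a median of 0.20, with 14 higher and 0 lower, and the 13 translational activators had a median of 0.28, with 8 higher and 1 lower. The 12 genes of the retrograde response, by which the nucleus responds to mitochondrial dysfunction, had a median of -0.05, with 3 higher and 3 lower. None of these genes passed an adjusted p of 0.05 in limma, and 2 of 13, 7 of 24, 7 of 13 and 3 of 12 had an unadjusted p below 0.05, against 13.3% of all probes. All of these genes were measured on the array. Of all probes, 18.7% were higher and 18.5% lower in all 3 replicates. *RMD9* is counted both among the RNA processing genes and among the translational activators.

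Some of these genes bear on the frames above and were chosen after their values had been seen. *RPO41*, the mitochondrial RNA polymerase, had ratios of 0.40, 0.39 and 0.78 in replicates 1, 2 and 3, with a mean of 0.53 ± 0.22 (SD, n = 3, limma adjusted p = 0.220). *PET309*, which stabilizes and helps translate *COX1* messenger RNA, had a mean of 0.28 ± 0.11 (SD, n = 3, limma adjusted p = 0.362), and *MSS51*, which activates its translation, had ratios of 0.46, 0.35 and -0.34. *CIT2*, the usual reporter of the retrograde response, had ratios of -0.59, -0.16 and 1.72, so that it was high in replicate 3 alone. The 12 genes of that list, regulators and targets together, had replicate medians of -0.10, -0.10 and 0.08, so *CIT2* does not stand for the list. *CBP6* and *MAM33* had the largest means among the translational activators, at 0.63 and 0.96, each with an adjusted p of 0.168 (limma).

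The ratios were also set side by side under other ways of processing. *COX1* lay between 0.58 with median centering and 0.90 with the log ratio of the scanner software, and *SCEI* between 0.45 and 0.75, with an adjusted p above 0.05 in each. *OLI1* lay between 0.37 and 0.68. The dim frame *BI2* ran from 0.10 to 0.81, and *COX2* and *VAR1* ran from 0.18 and 0.17 with median centering to 0.51 and 0.58 with the scanner software. *AI4* turned to -0.08 and Q0297 to -0.0027 with median centering, and the other frames detected on at least 2 arrays in both strains kept their sign.

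**Figure D4:**
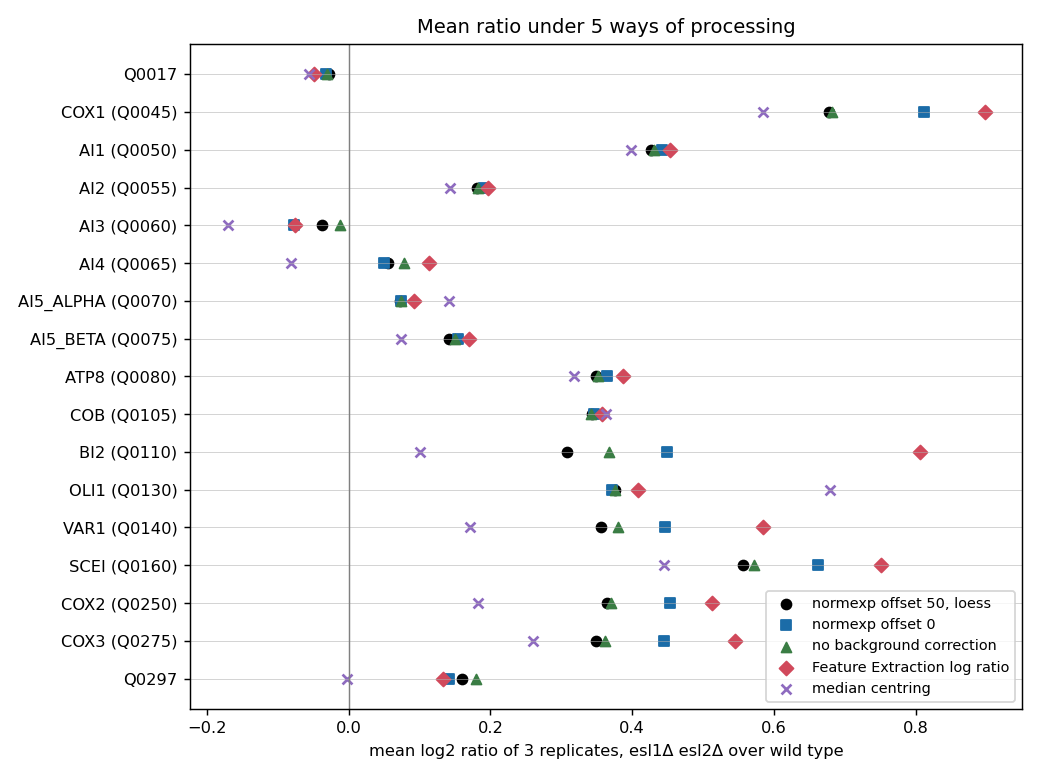
Mean log2 ratio over 3 replicates of *esl1Δ esl2Δ* over wild-type for the 17 mitochondrial frames detected in both strains on at least 2 arrays, under 5 ways of processing the spot signals. *COX1* and *SCEI* lie above 0.4 under each, whereas *AI3*, *AI4*, *AI5_ALPHA* and Q0017 lie within 0.2 of 0.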

How the data were processed

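RNA of *esl1Δ esl2Δ* and wild-type cells from 3 biological replicates was hybridized to 4 Agilent 2-color arrays, 500 ng per labeling, as the labels state. The authors deposited spot intensity values (median foreground and local background of each channel, not normalized) from Feature Extraction 10.1.1.1, together with its log10 ratios of red over green and its flags for detection and outliers. The series table they deposited repeats these log10 ratios for each spot, with column medians of 0 or -0.000979, and keeps the sign of the dye-swap array as scanned. That ratio was exactly 0 for 6 to 14 of the 55 spots of mitochondrial frames per array. Strain, replicate and dye were taken from the labels.

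Ratios were computed with limma 3.58.1, run in R 4.3.3 (tables were read by the data.table package, version 1.17.8). The steps were normexp with an offset of 50, loess within arrays with control spots at weight 0, removal of 536 control spots and of outlier spots, and averaging of the 2 or 3 spots of each mitochondrial frame. The dye swap was turned and averaged with replicate 3. Ratios were tested against 0 with lmFit and eBayes (two-sided, Benjamini-Hochberg over 6254 probes, 5.28 total degrees of freedom). On simulated data with 50 genes changed by each size, 8% were called at a log2 change of 0.5 and 64% at 1.

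The 23 frames and the gene lists were chosen with earlier results of these data known. Every frame was accounted for. Values per array were given for the 8 genes, for frames detected in both strains on all 4 arrays, and for the frames with the largest means. Nuclear genes were to be named only where they passed the test or 2-fold; none of the listed ones did, and the 9 named with values, among them *RPO41* and *COX5B*, fall outside this rule and were chosen after their values had been seen. Gene names came from a reference table (assembly R64), which held 19 of the 23 frames. The array was designed on an older assembly, and no coordinates or sequences are given. Whether each intron is present in the strain was not checked. The *COX26* gene of the complex IV list had no probe. The array number limits the precision.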

Additional observations from a re-analysis of the deposited data

How the results depend on the processing

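No mitochondrial frame passed an adjusted p of 0.05 with 3 replicates under any processing tried. Frames higher in all replicates numbered 8, but 5 with the scanner software's log ratio and with the series table and 3 with median centering. They numbered 4 among the 14 frames detected throughout. On leaving out a replicate they numbered 10 to 14, where only 2 replicates had to be above 0. Of all probes, 18.7% were higher in all 3 replicates, and of those detected throughout 18.5% were. The shares under the other settings were not computed. Frames lower in all replicates numbered 1, but 0 with the software's log ratio, the series table, an offset of 0, and among probes detected throughout, 2 with no background correction and with replicate 3 without its dye swap, 6 with median centering, and 1 to 2 on leaving out a replicate. The 6 with median centering were the frames detected in both strains on at most 1 array. The median over the frames was 0.16, but 0.10 with median centering, 0.26 with an offset of 0 and 0.26 among probes detected throughout, and 0.091 to 0.25 on leaving out a replicate. On leaving out a replicate, 0 to 2 frames passed the adjusted p (2, *COX1* and *SCEI*, without replicate 3), and 2 to 602 of all probes did. Of all probes, 7 passed with 3 replicates, but 1 with the software's log ratio and the series table, 11 with median centering and 4 with replicate 3 from its dye swap alone. At 1.5-fold, 1 frame and 235 probes passed in place of 0 and 50. With detection by a positive and significant signal, 1 frame was detected in no channel, in place of 4.

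Of 235 ratios of 17 frames under 14 settings, 11 changed sign. These were *AI4* (-0.081) and Q0297 (-0.0027) with median centering, Q0017 (0.0015) with replicate 3 without its dye swap, and *AI3* (0.052) in a fit of 4 arrays with a dye term, chosen after seeing the data. On leaving out a replicate, the ratio ran from -0.048 to 0.28 for *AI5_ALPHA*, from -0.096 to 0.24 for *AI4*, from -0.14 to 0.079 for *AI3*, from -0.067 to 0.76 for *OLI1*, from -0.042 to 0.29 for Q0297 and from -0.080 to 0.048 for Q0017. The cause was not tested. The dye term with replicate 3 as a block could not be fitted, and the mean spot signal was not used here, so neither was run. Both strains share each array, so the test of the ratios against 0 is already paired by replicate. Signal over background limits the 9 frames not detected throughout.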
